A study of Mus musculus with 10 samples.

Results

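The core clock and clock output genes were described here in mouse kidney as 10 genes, out of 30894 genes on the array. They were Arntl, Per1, Per2, Per3, Cry1, Nr1d1, Nr1d2, Dbp, Tef and Hlf, taken by gene symbol from the deposited log2 table. Each of the 10 had a single feature, so no choice between features arose. Kidney RNA came from 5 samples labelled as given cyclosporin A (CsA) under the skin each day for 7 days, at 60 mg/kg, and from 5 given its solvent, cremophore (vehicle). CsA suppresses immune responses by inhibiting the phosphatase calcineurin. Both groups were mice with a C57BL/6 background, aged 10 to 12 weeks, on chow with 0.05% sodium, and of a line in which Vhl can be deleted in Pax8-expressing tubule cells by doxycycline. The labels do not say whether that deletion was induced in these animals. The series looked for pathways that lead to CsA nephrotoxicity, and the hour at which kidneys were taken was not given in the sources used here.

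The clock is a transcription loop found in nearly every cell, the kidney's included. Arntl (BMAL1) with CLOCK or NPAS2 switches on the Per and Cry genes, whose proteins return to block it, and the Nr1d genes, whose REV-ERB proteins repress Arntl. Arntl mRNA is therefore high at the time of day when Nr1d1 and Dbp mRNA is low. Dbp, Tef and Hlf encode related basic leucine zipper factors that carry the rhythm to other genes through sites called D-boxes, among them genes of renal transport and drug handling.

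Promoter letters are shown for the members that were called changed, Nr1d2 and Hlf. They are also shown for Per1 and Per3, whose windows held motifs of BMAL1 and of the D-box factors. The RefSeq promoter table (GRCm38.p6) held 9 of the 10 members, all but Per2, in 12 windows, and each run below is the 250 bases before a gene's start, 5′ to 3′ on the gene's strand. Capitals mark the motif found on either strand.
Nr1d2, chr14:18239107-18239356, minus strand: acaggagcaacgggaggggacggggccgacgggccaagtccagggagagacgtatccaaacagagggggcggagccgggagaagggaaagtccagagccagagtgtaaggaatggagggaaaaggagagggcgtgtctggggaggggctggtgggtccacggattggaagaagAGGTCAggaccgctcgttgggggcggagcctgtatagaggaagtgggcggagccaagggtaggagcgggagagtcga
Hlf, chr11:90390918-90391167, minus strand: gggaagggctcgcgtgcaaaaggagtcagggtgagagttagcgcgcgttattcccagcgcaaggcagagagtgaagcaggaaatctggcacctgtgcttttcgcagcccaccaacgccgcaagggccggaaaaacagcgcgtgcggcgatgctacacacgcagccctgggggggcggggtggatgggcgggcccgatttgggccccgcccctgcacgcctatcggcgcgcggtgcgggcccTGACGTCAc
Per1, chr11:69098699-69098948, plus strand: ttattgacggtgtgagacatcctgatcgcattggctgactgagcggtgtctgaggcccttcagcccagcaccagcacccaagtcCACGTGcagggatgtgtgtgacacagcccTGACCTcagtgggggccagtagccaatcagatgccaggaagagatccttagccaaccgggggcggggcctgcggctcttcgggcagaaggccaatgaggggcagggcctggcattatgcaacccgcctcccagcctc
Per3, chr4:151044666-151044915, minus strand: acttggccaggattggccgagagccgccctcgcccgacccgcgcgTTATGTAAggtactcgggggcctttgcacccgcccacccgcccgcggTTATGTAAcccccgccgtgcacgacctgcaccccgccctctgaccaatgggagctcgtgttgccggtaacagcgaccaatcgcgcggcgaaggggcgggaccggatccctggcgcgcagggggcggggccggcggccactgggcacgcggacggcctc
In Nr1d2 the capitals are AGGTCA, the core letters that REV-ERB and ROR receptors bind, 77 bases before the start. In Hlf they are a cAMP response element, TGACGTCA, which begins 9 bases before the start and was the only motif found there. The Per1 window shown held an E-box, CACGTG, the site of BMAL1 with CLOCK, and further on AGGTCA in reverse. Per1 had another window, not shown, in which none of the motifs searched was found. Per3 held the D-box TTATGTAA at 2 places, 205 and 158 bases before the start.

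Among the 9 matched genes, Cry1, Per1 and Tef had an E-box, which 6.02% of all 32851 windows of this length had. The E-box variant CACGTT was in Cry1 and Nr1d1 and in 3.85% of windows. A D-box (TTATGTAA or TTACGTAA) was in Per3 alone among the 9, and in 0.931% of windows. AGGTCA was in Nr1d2 and Per1 and in 14% of windows, and TGACGTCA in Hlf and in 1.55%. A member was counted if any of its windows held the motif, whereas the shares are of single windows, so the 2 are not alike. Both strands were searched and no 2 matches in the members' windows overlapped. These matches describe letters in a short window and do not show binding.

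Before the comparison, the arrays were checked against their labels. Medians of the 10 arrays ranged from 5.14 to 5.21 log2 units, and any 2 arrays correlated at 0.976 to 0.989. The 8 kidney markers, Slc34a1 of the proximal tubule among them, had means between 6.66 and 12.72. CsA replicates 1 and 2 had Xist, the X-inactivation transcript, at 9.21 and 9.15, against at most 4.82 elsewhere, and low Y-linked genes. These 2 CsA arrays thus carried female RNA, and the other 3 CsA arrays and all 5 vehicle arrays male RNA. Sex and treatment cannot be told apart for those 2 arrays, and values for the 8 male arrays are given beside the others. Macrophage markers moved with treatment: limma called 6 of 9 higher, where 6.49% of all genes were called in either direction. Their mean level lay between 6.77 and 7.07 in CsA and between 6.18 and 6.35 in vehicle arrays. Of the adipocyte markers 1 of 7 rose, and none of 3 erythroid or 4 muscle markers was called by limma (1 and 0 at an unadjusted p under 0.05). In the male arrays, where the clock differences were larger, the adipocyte markers had a median difference of 0.65, with 6 of 7 at an unadjusted p under 0.05 and 1 called. Of all genes, 18.8% had such a p in the male arrays and 3.17% were called. There the haemoglobin gene Hbb-bt was also called higher (1.21, limma adjusted p = 0.00503). The other erythroid markers measured, Alas2 (0.17) and Slc4a1 (-0.15), were not called there, and Hba-a1, Hbb-bs and Hbb-b1 were not measured. Of the 8 kidney markers, 1 was called there, Slc12a3, the distal tubule's sodium chloride transporter, which was lower (-0.43, limma adjusted p = 0.0306). In bulk tissue fewer cells of a type and less RNA per cell cannot be told apart, and the part of any of these cells in the clock values was not tested. The labels do not say that each sample is a separate animal, so p-values measure the spread between these samples.

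Over all 10 arrays limma called 2 of the 10 clock genes changed, both lower with CsA: Nr1d2 by 0.44 and Hlf by 0.24 on the log2 scale. Of all genes tested, 3.54% were called lower and 6.49% in either direction at an adjusted p under 0.05. All members but Arntl had a difference below 0, against 48.3% of all genes, but these 9 signs are not independent, since most of these genes varied with Arntl from array to array, as shown further on. The median difference of the members was -0.17, against 0.01 over all genes. An unadjusted p under 0.05 was reached by 2 of 10 members and by 20.8% of all genes, and groups did not overlap in 1 member, Hlf, and in 9.09% of all genes (5.05% with CsA lower). By these last measures the members lay near the background.

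In the 8 male arrays Hlf alone was called, where 1.64% of all genes were called lower and 3.17% in either direction. There 5 of 10 members had an unadjusted p under 0.05, against 18.8% of all genes, and 9 of 10 a difference below 0, against 49.8%. Groups did not overlap in Nr1d1, Nr1d2 and Hlf, 3 of 10 members, against 15.1% of all genes (8.1% with CsA lower). The members' median there was -0.23, against 0.00 over all genes.

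**Figure D1:**
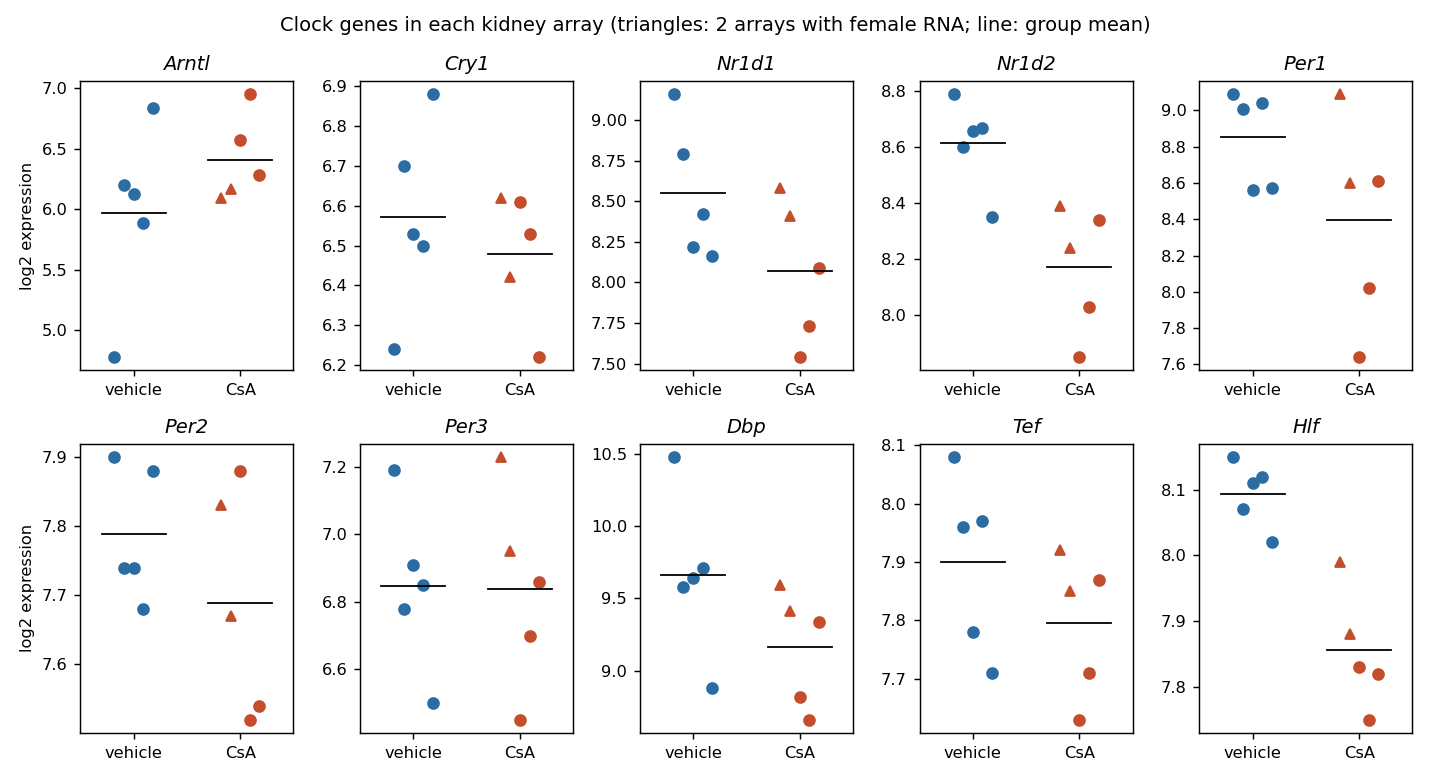
Log2 expression of the 10 clock genes (vertical axes, each with its own scale) in the 5 vehicle and 5 CsA arrays, 1 point per array. Triangles mark the 2 CsA arrays with female RNA and lines the group means. Hlf is the one gene of the 10 whose groups do not overlap.

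Arntl encodes the activator at the head of the loop. In vehicle replicates 1 to 5 it read 4.78, 6.20, 6.13, 5.89 and 6.84 log2 units. In CsA replicates 1 to 5 it read 6.09, 6.17, 6.57, 6.95 and 6.28. The lowest value of all was vehicle replicate 1, vehicle replicate 5 lay close to the highest CsA array, and the groups overlapped. The means were 5.97 ± 0.75 in vehicle and 6.41 ± 0.35 in CsA (SD, n = 5 each), a difference of 0.44 ± 0.31 (SE) that limma did not call (adjusted p = 0.458). In the 8 male arrays it was 0.63 ± 0.37 (adjusted p = 0.406).

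Nr1d1 and Nr1d2 encode REV-ERB alpha and beta, the repressors of Arntl. Nr1d2 read 8.79, 8.60, 8.66, 8.67 and 8.35 in vehicle replicates 1 to 5. With CsA it read 8.39, 8.24, 7.85, 8.03 and 8.34. The CsA arrays lay below every vehicle array except that CsA replicate 1 passed vehicle replicate 5. Nr1d2 fell from 8.62 ± 0.16 to 8.17 ± 0.23 (SD, n = 5), or 1.36-fold (log2 difference -0.44 ± 0.11 (SE), limma adjusted p = 0.0389). In the 8 male arrays the groups did not overlap, and the difference was -0.54 ± 0.13 without passing the threshold (adjusted p = 0.0526), whereas a fit of all arrays with a term for the female ones gave adjusted p = 0.0427. The call was lost after a further quantile normalization (adjusted p = 0.0641), without limma's moderation of the variance (0.0812), without CsA replicates 2, 3 or 4 (adjusted p = 0.0696, 0.0730 and 0.0814) and without vehicle replicates 1, 2, 3 or 4 (0.0919, 0.0786, 0.0880 and 0.0845), with differences between -0.51 and -0.36 over the 10 such fits.

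Nr1d1 was spread more widely within each group. Its vehicle arrays read 9.16, 8.79, 8.22, 8.42 and 8.16, and its CsA arrays 8.58, 8.41, 7.54, 7.73 and 8.09. The 3 male CsA arrays lay below all vehicle arrays and the 2 female ones among them. The difference was -0.48 ± 0.23 (SE) over all arrays (limma adjusted p = 0.251) and -0.77 ± 0.22 in the male arrays (adjusted p = 0.102). So only Nr1d2 was called, but Nr1d1 and Nr1d2 were not shown to respond unequally: the change in their within-array difference was 0.04 (exact permutation test over all regroupings of the arrays, p = 0.738).

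Dbp, Tef and Hlf encode the 3 D-box factors. Hlf read 8.15, 8.07, 8.11, 8.12 and 8.02 in vehicle replicates 1 to 5. With CsA it read 7.99, 7.88, 7.83, 7.75 and 7.82. Every CsA array lay below every vehicle array. Hlf fell from 8.09 ± 0.05 to 7.86 ± 0.09 (SD, n = 5), or 1.18-fold (log2 difference -0.24 ± 0.06 (SE), limma adjusted p = 0.0454), and by 0.29 on the log2 scale in the 8 male arrays (adjusted p = 0.0443). Its call was kept without CsA replicate 1 (adjusted p = 0.0290). It was lost without each of the other CsA arrays (0.0791, 0.0882, 0.0928 and 0.0909 for replicates 2 to 5) and each vehicle array (0.100, 0.0867, 0.0991, 0.0973 and 0.0506 for replicates 1 to 5), with differences between -0.27 and -0.21, and after a further quantile normalization (-0.19, adjusted p = 0.106).

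Dbp spanned the widest range of these 3. Vehicle arrays read 10.48, 9.58, 9.64, 9.71 and 8.88, and CsA arrays 9.59, 9.41, 8.82, 8.66 and 9.34. The extremes of the vehicle group, replicates 1 and 5, were also those of Arntl, in reverse. Dbp differed by -0.50 ± 0.26 (SE; limma adjusted p = 0.305), and by -0.72 ± 0.30 in the male arrays (adjusted p = 0.227). Tef read 8.08, 7.96, 7.78, 7.97 and 7.71 in vehicle and 7.92, 7.85, 7.63, 7.71 and 7.87 in CsA arrays. The groups overlapped, and the difference of -0.11 ± 0.09 was not called (adjusted p = 0.551).

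Per1, Per2 and Per3 encode the PERIOD repressors, of which Per1 also answers to glucocorticoids and cAMP. Per1 read 9.09, 9.01, 8.56, 9.04 and 8.57 in vehicle and 9.09, 8.60, 7.64, 8.02 and 8.61 in CsA arrays. CsA replicates 3 and 4 stood below all others and the rest overlapped. The difference was -0.46 ± 0.23 (SE; limma adjusted p = 0.290) over all arrays and -0.76 ± 0.21 in the male ones (adjusted p = 0.0887). Per2 ranged from 7.68 to 7.90 in vehicle and from 7.52 to 7.88 in CsA arrays, with a difference of -0.10 ± 0.09 (adjusted p = 0.570). Per3 ranged from 6.50 to 7.19 and from 6.45 to 7.23, with means that differed by -0.01 ± 0.15 (95% interval -0.34 to 0.31). Its sign turned under 5 of 21 alternatives, so no direction is given.

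Cry1 encodes the cryptochrome that joins the PERIOD proteins, and its mRNA runs later than that of the Per genes. It read 6.24, 6.70, 6.53, 6.50 and 6.88 in vehicle and 6.62, 6.42, 6.61, 6.53 and 6.22 in CsA arrays. The CsA values lay almost wholly within the vehicle range, and the difference was -0.09 ± 0.12 (SE, limma adjusted p = 0.720; 95% interval -0.35 to 0.17).

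**Figure D2:**
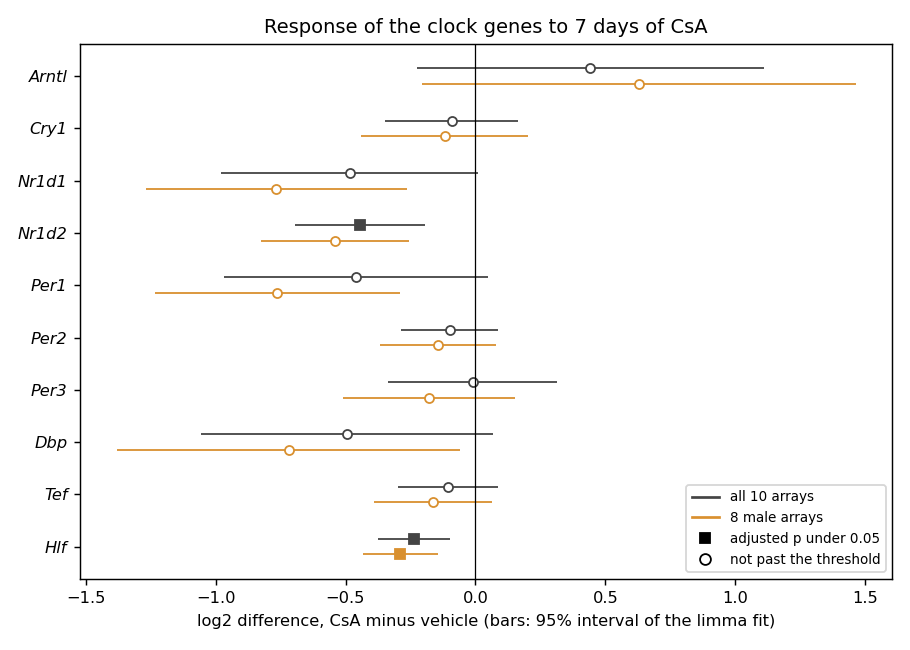
Log2 difference, CsA minus vehicle, of the 10 clock genes over all 10 arrays (grey) and the 8 male arrays (orange). Bars are 95% intervals of the limma fit and filled squares have an adjusted p under 0.05. Nr1d2 and Hlf are called over all arrays and Hlf in the male arrays.

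For all 10 members the difference was larger in size in the 8 male arrays than over all 10, as it was for 53.5% of all genes. For 9 of the 10 the mean of the 2 female CsA arrays lay nearer the vehicle mean than that of the 3 male ones. This is nearly the same comparison in other terms. For Dbp, for instance, the female CsA mean was 9.50 and the male 8.94, against 9.66 in vehicle. The 10 genes are not independent here, since most varied with Arntl, in which these 2 arrays were the lowest of the CsA group. With no female vehicle array, whether the nearer values are a matter of sex cannot be told apart from the 2 arrays themselves.

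Related genes of each family were then compared for unequal responses. The test was exact permutation over all regroupings of the arrays for 8 pairs, and 1 pair had an unadjusted p under 0.05. That pair was Per1 and Per3, whose within-array difference was 2.01 ± 0.24 in vehicle and 1.56 ± 0.28 in CsA (SD, n = 5), a change of -0.45 (exact p = 0.0397, adjusted p = 0.318). Hlf against Tef changed by -0.13 (exact p = 0.103) and Tef against Dbp by 0.39 (exact p = 0.135). The smallest p that this design allows is 0.00794, or 0.0635 for a single pair after adjustment over the 8, so no pair could have passed the threshold on its own, and the missing calls say nothing about equal responses.

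Within each group most of the clock genes varied with Arntl, Per2 being an exception, and some varied far more than most genes of the array. The within-group SD of Arntl was 0.59 log2 units, above that of 99.6% of all genes, and those of Dbp (0.49), Per1 (0.44) and Nr1d1 (0.43) were above 99.1%, 98.6% and 98.4%. The median gene had 0.15. At the other end Hlf had an SD of 0.07, below all but 5.49% of genes, and Per2 and Tef (0.13 and 0.14) were also below the median gene. Hlf was thus called with the smaller difference and Dbp not called with the larger one.

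**Figure D3:**
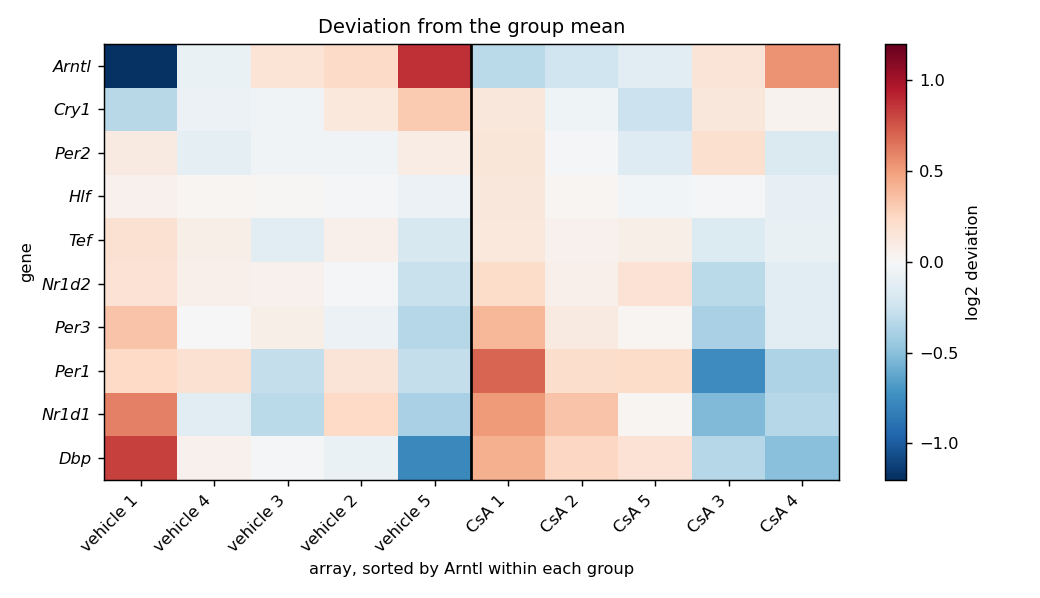
Deviation of each clock gene (rows) from its group mean in each array (columns, sorted by Arntl within each group), in log2 units. Red is above and blue below the group mean. From left to right in each group Arntl goes from low to high while Dbp goes from high to low.

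The order of the arrays by Arntl was the exact reverse of their order by Dbp in both groups. With the group means taken out, Pearson's r between Arntl and Dbp over the 10 arrays was -0.96 (exact permutation within groups, p = 6.94e-05, the smallest the 14400 permutations give; adjusted p = 0.000625 over 9 relations), and Spearman's rho on ranks within groups was -1.0 (exact p = 0.000139). Of all 30893 other genes, Dbp had the most negative r with Arntl. Without vehicle replicates 1 and 5, the arrays farthest out in Arntl, r was -0.95 over 8 arrays, and over the 8 male arrays it was -0.97 (exact p = 0.00139). These relations were chosen after the values were seen.

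Of the 9 relations of Arntl with the other members, 8 had an adjusted p under 0.05 by Pearson's r and 7 by rho. Hlf (r = -0.70, rho = -0.95, exact p = 0.00382 and 0.00125), Tef (r = -0.82, rho = -0.85, exact p = 0.00451 and 0.00931) and Nr1d2 (r = -0.73, rho = -0.90, exact p = 0.00937 and 0.00431) ran against Arntl. So did Per3 (r = -0.79, rho = -0.90, exact p = 0.00840 and 0.00431), Nr1d1 (r = -0.78, rho = -0.80, exact p = 0.00653 and 0.0192) and Per1 (r = -0.57, rho = -0.75, exact p = 0.0184 and 0.0336). Without the 2 farthest arrays these 6 had r between -0.83 and -0.67. Over the 8 male arrays Per1 alone of the 6 had an unadjusted exact p over 0.05 (r = -0.54, p = 0.126). Per3, Nr1d1 and Nr1d2 were just under it (exact p = 0.0431, 0.0403 and 0.0403). The p-values of the male arrays were not adjusted over the 9 relations, so they do not show which relations pass by the rule used above. Cry1 ran with Arntl (r = 0.77, exact p = 0.0292), but that relation rests on the 2 farthest arrays, without which r was 0.28, and rho was 0.40 (exact p = 0.311). Per2 showed no relation past the threshold (r = -0.23, rho = -0.25, exact p = 0.472 and 0.544).

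Arrays with nearly equal Arntl show how the groups compared at one point of this order. Vehicle replicate 2 and CsA replicate 2 had Arntl at 6.20 and 6.17. Their Dbp was 9.58 and 9.41, their Nr1d2 8.60 and 8.24, and their Hlf 8.07 and 7.88. Vehicle replicate 5 and CsA replicate 4 had Arntl at 6.84 and 6.95, Dbp at 8.88 and 8.66, Nr1d2 at 8.35 and 8.03, and Hlf at 8.02 and 7.75. In both of these pairs, chosen after the values were seen, all 3 genes were lower in the CsA array. For Hlf any pair gives this, since its groups did not overlap. For Nr1d2 every pair does but CsA replicate 1 with vehicle replicate 5. The pairs therefore add nothing for Hlf and little for Nr1d2. CsA replicate 4 was also higher in Arntl than vehicle replicate 5, and CsA replicate 2 carried female RNA.

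A fit over all genes with the Arntl level as a covariate, added after the data were seen, estimated the difference at equal Arntl. At equal Arntl, Nr1d2 differed by -0.34 ± 0.10 (SE; unadjusted p = 0.00557 in limma, adjusted p = 0.0823) and Hlf by -0.20 ± 0.07 (unadjusted p = 0.0105, adjusted p = 0.117). Dbp differed by -0.14 ± 0.10 (adjusted p = 0.481), against -0.50 without the covariate, and Tef by -0.02 and Per2 by -0.08. Per1 (-0.27 ± 0.22), Nr1d1 (-0.23 ± 0.17) and Cry1 (-0.21 ± 0.10) had estimates as far below 0 as Hlf, with wider errors, and Per3 had 0.15 ± 0.11. Whether these estimates differ between genes was not tested. None of the 9 members was called there by limma, against 4.16% of all genes, and 2 of 9 had an unadjusted p under 0.05, against 18.9%. Arntl itself may respond to treatment, so this fit does not remove one quantity from the other.

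**Figure D4:**
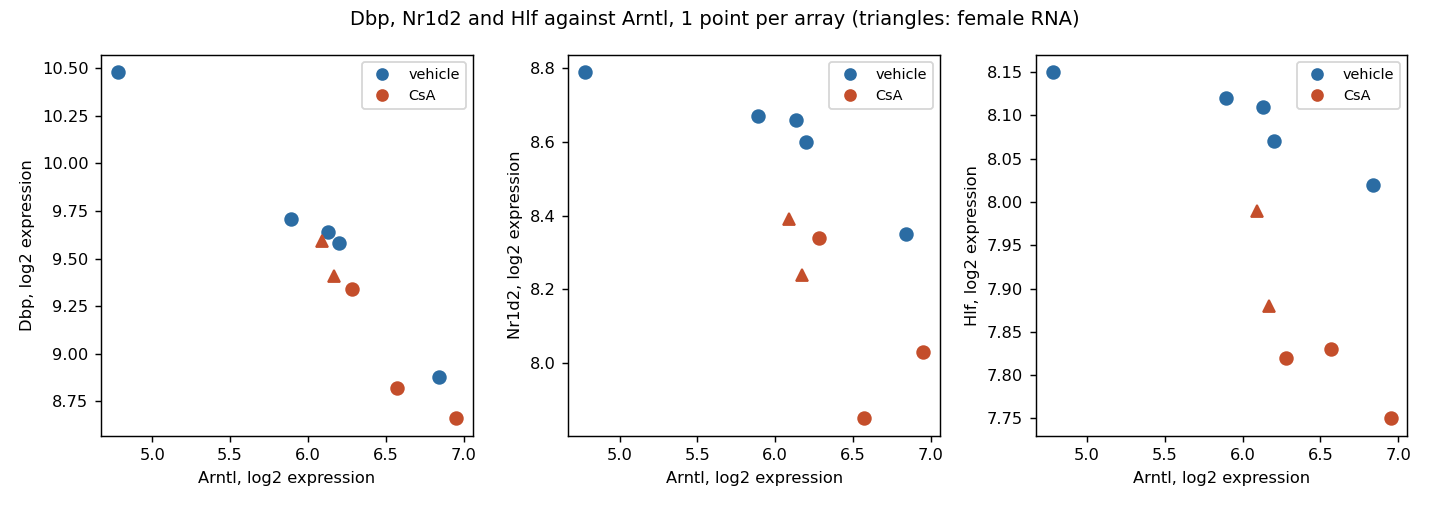
Dbp, Nr1d2 and Hlf (vertical axes) against Arntl (horizontal axes), in log2 units, 1 point per array, with triangles for the arrays with female RNA. All 3 genes go down as Arntl goes up. In the 2 pairs of arrays with nearly equal Arntl given in the text each is lower in the CsA array. For Hlf this holds of any pair, since its groups do not overlap.

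Genes whose pattern was most like that of Dbp and of Arntl were sought over all arrays, as a description. After group means were taken out, Stk35, Iqsec1 and Myt1 had the highest r with Dbp among named genes outside the members (0.96, 0.95 and 0.95 over 10 arrays), followed by Rfx4 (0.94) and Trp53rkb (0.92). Those most like Arntl were Vps37d, Atp2a2, Slc25a20, Gcc1 and Wdr5b (0.96, 0.95, 0.92, 0.92 and 0.92). Each of these 10 spanned at most 0.54 log2 units over the arrays, against 1.82 for Dbp and 2.16 for Arntl, and none was called changed. Signal was near or below the array medians of 5.14 to 5.21 in Rfx4 (4.55 to 4.87), Myt1 (4.77 to 5.26) and Trp53rkb (5.16 to 5.62).

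The other transcription factors of the clock included 1 called gene of 12, against 6.49% of all genes. An unadjusted p under 0.05 in limma was reached by 6 of the 12, against 20.8% of all genes. In the male arrays 8 reached it, against 18.8%. Over all arrays 7 of the 12 differed below 0 and 5 above. The called gene, Rorb, encodes a ROR receptor that binds the same letters as REV-ERB. Rorb read 5.90, 5.82, 5.63, 5.84 and 5.68 in vehicle and 5.37, 5.45, 5.39, 5.43 and 5.40 in CsA arrays, with no overlap. Its signal was low, with a mean of 5.59 over the 10 arrays, near that of the muscle marker Acta1 (5.60). Rorb fell by 0.36 on the log2 scale (SE 0.07, limma adjusted p = 0.00912), also in the male arrays (-0.37, adjusted p = 0.0420) and in all 10 fits without 1 array (highest adjusted p = 0.0289). Rora, another ROR receptor, differed by -0.27 ± 0.08 (adjusted p = 0.0667). Npas2, the partner of BMAL1 that REV-ERB represses, differed by 0.33 ± 0.13 (adjusted p = 0.174), and by 0.49 in the male arrays (adjusted p = 0.0873). Nfil3, a repressor at D-boxes, differed by 0.21 ± 0.08 (adjusted p = 0.135), and Clock by -0.04 ± 0.08. The list's median difference was -0.04.

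Ciart, a repressor of BMAL1 that cycles with the Per genes, read 7.13, 6.42, 6.00, 6.28 and 5.90 in vehicle and 6.50, 6.29, 5.81, 5.62 and 5.87 in CsA arrays. Vehicle replicate 1, lowest in Arntl, was highest in Ciart. Of 28 relations of Arntl with other clock factors and clock-controlled genes, Ciart's was the one to pass by r (-0.90, exact p = 0.000903, adjusted p = 0.0253), and by rho it did not (-0.85, exact p = 0.00931, adjusted p = 0.130). Without the 2 farthest arrays its r was -0.77.

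**Figure D5:**
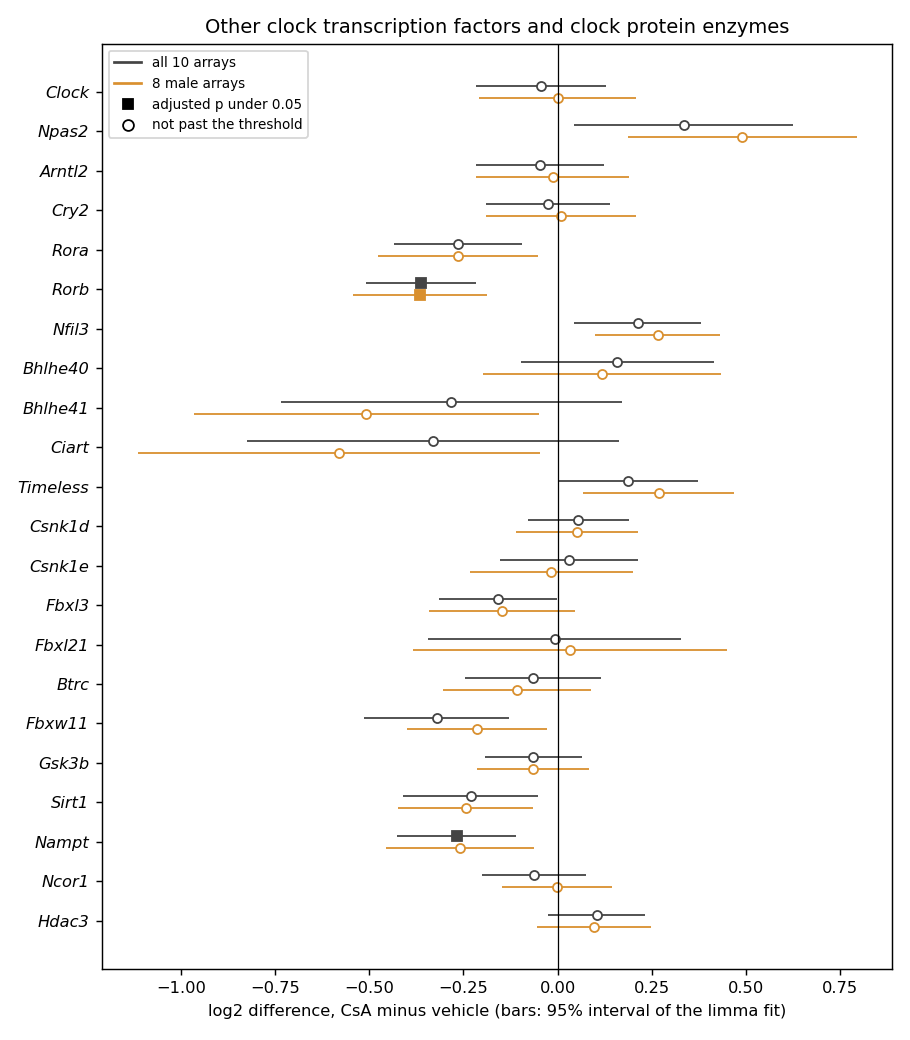
Log2 difference, CsA minus vehicle, of 11 other clock transcription factors (upper rows, Clock to Timeless) and 11 enzymes and partners of clock proteins (lower rows, Csnk1d to Hdac3), over all 10 arrays (grey) and the 8 male arrays (orange). Bars are 95% intervals of the limma fit and filled squares have an adjusted p under 0.05. Rorb is called in both fits and Nampt over all arrays.

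Among 11 enzymes and partners that act on clock proteins, 1 was called, against 6.49% of all genes. An unadjusted p under 0.05 in limma was reached by 4 of them, against 20.8% of all genes. Nampt, which makes the NAD that the deacetylase SIRT1 needs, read 9.35, 9.52, 9.47, 9.65 and 9.64 in vehicle and 9.21, 9.27, 9.26, 9.35 and 9.19 in CsA arrays. It fell by 0.27 on the log2 scale (limma adjusted p = 0.0488), missed the threshold in the male arrays (-0.26, adjusted p = 0.148), and kept the call only without vehicle replicate 1 (adjusted p = 0.0338, against 0.0557 to 0.114 without any other array). Fbxw11, of the ubiquitin ligase that removes PERIOD proteins, differed by -0.32 ± 0.09 (adjusted p = 0.0505), and Sirt1 by -0.23 ± 0.08 (adjusted p = 0.125). The casein kinase genes Csnk1d and Csnk1e differed by 0.06 ± 0.06 and 0.03 ± 0.08.

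None of 16 clock-controlled genes was called by limma over all arrays, and 4 had an unadjusted p under 0.05, near the 20.8% of all genes. In the male arrays Wee1, a cell cycle kinase under E-box control, was called lower (-0.38 ± 0.09, adjusted p = 0.0498), against -0.24 ± 0.10 over all arrays (adjusted p = 0.202). Wee1 read 7.97, 7.99, 7.97, 8.10 and 7.74 in vehicle and 7.97, 7.88, 7.53, 7.56 and 7.64 in CsA arrays, so that the 3 male CsA arrays were the lowest of the 10. Usp2, a ubiquitin protease that cycles in many organs, differed by -0.23 ± 0.08 (adjusted p = 0.135), and Alas1, of haem synthesis, by -0.44 ± 0.14 (adjusted p = 0.0861). Aqp2, the water channel of the collecting duct, differed by 0.24 ± 0.10 (adjusted p = 0.173). The list's median difference was 0.07.

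Genes that answer to cues able to move clock genes were read beside them. Of 7 glucocorticoid-induced genes, a list that includes Per1, 1 was called, against 6.49% of all genes. An unadjusted p under 0.05 in limma was reached by 2 of them, against 20.8%. The called gene, Klf9, a factor that also cycles, read 9.93, 10.27, 9.90, 10.06 and 9.95 in vehicle and 9.82, 9.47, 9.35, 9.60 and 9.84 in CsA arrays, without overlap. It fell by 0.40 on the log2 scale (limma adjusted p = 0.0467), but missed the threshold in the male arrays (-0.42, adjusted p = 0.0988) and in 8 of 10 fits without 1 array (adjusted p 0.0624 to 0.110), all but those without CsA replicates 1 or 5. Fkbp5, of the same kind, differed by -0.63 ± 0.21 (adjusted p = 0.107), while Tsc22d3 and Sgk1 had differences of 0.16 ± 0.09 and 0.28 ± 0.16 (adjusted p = 0.370 each). None of 8 temperature-responsive genes was called by limma. An unadjusted p under 0.05 was found for 2 of them, again near the share of all genes, Hsph1 (-0.36 ± 0.13) and Hsp90aa1 (-0.31 ± 0.12). In the male arrays none of the 8 reached it, against 18.8% of all genes. Hsph1 differed by -0.30 ± 0.15 and Hsp90aa1 by -0.17 ± 0.10 there. The part of hormone levels, temperature, feeding or hour of collection in the clock values was not tested.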

How the data were processed

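Kidney RNA (200 ng per sample) was measured on Affymetrix Mouse Gene ST 2.0 arrays, 1 per sample, per the labels' protocols. The deposited values are log2 expression by the authors, 1 per feature and array. RMA and Partek 6.4 are named in the submitters' processing notes, without order or settings, and the genome build was not given in the sources used here. Both deposited tables held 41345 features with identical log2 values. Gene symbols were brought up to date with RefSeq's gene table (GRCm38.p6), 8874 features had none, and each gene was read from its feature with the highest mean, which left 30894 genes.

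Groups came from the source descriptions. The test of CsA against vehicle was that of limma 3.58.1 (lmFit and eBayes, R 4.3.3, 2-sided, no covariate), with Benjamini-Hochberg adjustment over all genes and calls at an adjusted p under 0.05. The genes, lists and tests were chosen with earlier results of these data known. Of each list besides the members, genes called over all arrays or in males only were named, or those with the smallest p, with others named after their values were seen. Correlations used values less their group mean, with exact permutation within groups. In simulated data for 30894 genes, 100 of them changed at each size, the test over all 10 arrays recovered 62% of changes of 0.5 log2 and 94% of 1 log2, with 9 false calls of 165, and males only 42% and 88%, with 7 of 137. The simulated noise was independent between genes, and the changed genes were picked at random. The recovered shares are therefore not those of Arntl, Dbp, Per1 and Nr1d1. Their within-group SDs were 0.43 to 0.59 log2 units, against 0.15 for the median gene. The number of arrays limits the precision. Alternatives were males only, a term for the female arrays, filters on dim genes, 2 normalizations, 3 variance settings, the mean of a gene's features, leaving out each array, and the Arntl level as a covariate, the last chosen after seeing the data.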

Additional observations from a re-analysis of the deposited data

How the results depend on the processing

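Over all genes, limma called 2004 over all arrays, 980 in males only, 1011 with a term for the female arrays, 3284 among genes above the median signal, 1285 with Arntl as a covariate, and between 1134 and 1927 without 1 array. Of the clock members, 2 were called over all arrays, 1 in males only and without variance moderation, none after quantile normalization again or with Arntl as a covariate, and between 0 and 2 without 1 array; the cause was not tested. After quantile normalization again Nr1d2 differed by -0.40 (adjusted p = 0.0641) and Hlf by -0.19 (adjusted p = 0.106), and without moderation Nr1d2 missed the threshold (adjusted p = 0.0812). Both genes were called under 10 of 21 alternatives and stayed below 0 under all 21. Per3 turned from -0.01 to 0.15 with Arntl as a covariate and lay between -0.11 and 0.088 without 1 array. The other 9 members kept their sign under all alternatives run. For the family pairs the smallest adjusted p a single pair could reach was 0.0635 over all arrays and 0.143 in males only, so no pair could have passed the threshold on its own in either. Per2 against Per3 turned to 0.036 in males only and lay between -0.24 and 0.020 without 1 array, Nr1d2 against Nr1d1 between -0.069 and 0.13, and Cry1 against Cry2 between -0.17 and 0.016. No paired analysis was possible because the labels give the samples of the groups no shared replicate number. Over 20 groups of 5 tested, no clock gene had an outlying array by Dixon's test.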
